A study of Mus musculus with 12 samples.

Results

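Hepatic mRNA of 8 fatty acid desaturases and elongases was examined in mice fed simvastatin. The genes were chosen by name from the Fads, Scd and Elovl families: Fads1, Fads2, Fads3, Scd2, Elovl1, Elovl2, Elovl3 and Elovl5. Scd1 and Elovl6 are given for comparison only, and the choice left out Scd3, Scd4, Elovl4, Elovl7 and Fads6, of which all but Fads6 did not pass the filter on low counts given next. All 8 were found among the 48526 genes of the deposited table, and all 8 were among the 11968 genes that had more than 1 CPM (read counts scaled to a common library total) in at least 6 of 12 livers. The mice were female and male C57BL/6J animals, an inbred wild-type strain with no engineered allele, 8 to 10 weeks old when the diets began. They received chow or the same chow with simvastatin, a cholesterol-lowering drug of the statin class, at 0.1 g/kg for 4 weeks (per kg of food in the study's methods, per kg of body weight in the sample labels). The groups were female chow, female statin, male chow and male statin, with 3 livers in each. Pooling of animals is not mentioned, so each liver was treated as 1 mouse, and bulk RNA of the whole organ was measured, in which fewer cells of a type and less RNA per cell cannot be told apart.

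Desaturases insert double bonds into fatty acyl-CoA chains and elongases lengthen the chains. Fads2 takes the first step from the dietary essential fatty acids to the polyunsaturated fatty acids, Fads1 the later desaturation step, and Elovl5 and Elovl2 the elongation steps that lead to docosahexaenoic acid (DHA), an ω-3 fatty acid that the liver synthesizes. Scd2 makes monounsaturated fatty acids as Scd1 does, Fads3 desaturates sphingoid bases, and Elovl1 and Elovl3 build very-long-chain saturated and monounsaturated fatty acids. Several of these genes are known targets of SREBP1c, LXR and PPARα, the transcription factors of lipid synthesis and fatty acid oxidation.

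Total counts ranged from 46066381 to 60419223 per liver, so that 3 counts stood for 0.0497 to 0.0651 CPM. Levels are given below as CPM scaled by TMM factors, which ranged from 0.924 to 1.05. The 5 hepatocyte markers (Alb, Apoa1, Ttr, Serpina1a and Cyp2e1) summed to 82100 to 146000 CPM in every liver, whereas the 4 adipocyte markers summed to 0 to 2.65 CPM, with Lep at 0 in 11 of 12 livers. All 5 sex marker genes differed between females and males in the direction of the labels.

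In the GRCm38 annotation, 5 of the 8 genes lie on chromosome 19. Fads3 (chr19:10041569-10060110, plus strand) and Fads2 (chr19:10062765-10101746, minus strand) are 2.7 kb apart, and Fads1 (chr19:10182888-10196877, plus strand) starts 81.1 kb from the start of Fads2 on the opposite strand, with 1 noncoding gene between them. Scd2 (chr19:44293674-44306864, plus strand) lies 87.6 kb from Scd1, and Elovl3 (chr19:46131897-46135694, plus strand) further along. Elovl1 is at chr4:118428093-118432953 (plus strand), Elovl2 at chr13:41182381-41220405 (minus strand) and Elovl5 at chr9:77917364-77984519 (plus strand). Of the 50-base stretches of annotated transcripts, as long as 1 read of a pair, 3.97% of those of Scd2 also occur in other genes, chiefly Scd1 and Scd3, and at most 0.152% of those of any other member. Elovl1 overlaps the end of Cdc20, and Elovl3 the end of Pitx3, both on the other strand.

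RefSeq promoter sequences (GRCm38.p6) were at hand for 5 of the 8 genes, Fads2, Fads3, Elovl1, Elovl2 and Elovl5. The 250 bases before the start site of Fads3 and of Elovl5 are shown because both genes are returned to below for their difference between females and males. Capitals mark CCAAT, the NF-Y motif, which reads ATTGG on the other strand, and CACGTG, an E-box; both strands were searched, and no marked motifs overlap. Fads3 is read from chr19:10041298-10041547 and Elovl5 from chr9:77917115-77917364, both on the plus strand.
Fads3: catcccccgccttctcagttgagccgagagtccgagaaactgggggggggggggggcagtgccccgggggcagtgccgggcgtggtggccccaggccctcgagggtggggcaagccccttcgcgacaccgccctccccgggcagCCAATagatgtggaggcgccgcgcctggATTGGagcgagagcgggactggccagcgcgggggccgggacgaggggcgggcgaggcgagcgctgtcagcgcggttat
Elovl5: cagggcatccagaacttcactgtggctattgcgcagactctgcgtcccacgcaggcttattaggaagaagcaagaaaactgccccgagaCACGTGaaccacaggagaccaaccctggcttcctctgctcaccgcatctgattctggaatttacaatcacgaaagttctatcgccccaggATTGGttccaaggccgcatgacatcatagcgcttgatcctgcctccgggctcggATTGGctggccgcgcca
Fads3 holds CCAAT at 106 and 78 bases before the start site. Elovl5 holds it at 71 and 17 bases before the start site and an E-box at 161 bases. Among 32851 windows of the same length, 33.8% held CCAAT and 6.02% held CACGTG. The letters TCACNCCAC, the core of the sterol response element bound by SREBP, were in 1.05% of all windows and in none of the windows of the 5 genes. TTCNNNGAA, the spacing bound by STAT5, was in 7.02% of all windows and also in none of them.

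The 8 genes differed widely in level. To compare genes, CPM was divided by the kb of annotated exon. In female chow livers, Elovl5 was the most abundant at 404 ± 58.0 CPM per kb (SD, n = 3), above Elovl2 at 228 ± 25.1, Fads1 at 211 ± 24.3 and Fads2 at 190 ± 32.4, whose ranges overlapped from each gene to the next. Elovl1 followed at 19.5 ± 2.22, Scd2 at 2.34 ± 0.524, Fads3 at 0.848 ± 0.169 and Elovl3 at 0.363 ± 0.115 CPM per kb, with no overlap between neighbours. In male chow livers, Elovl2, Elovl5, Fads1 and Fads2 lay together between 194 and 212 CPM per kb, with overlapping ranges. Elovl3, the lowest of the 8 in females, came next after these 4 in males at 49.0 ± 17.1 CPM per kb. The 4 genes of polyunsaturated fatty acid synthesis were thus the 4 most abundant members in each of the 4 groups.

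**Figure D1:**
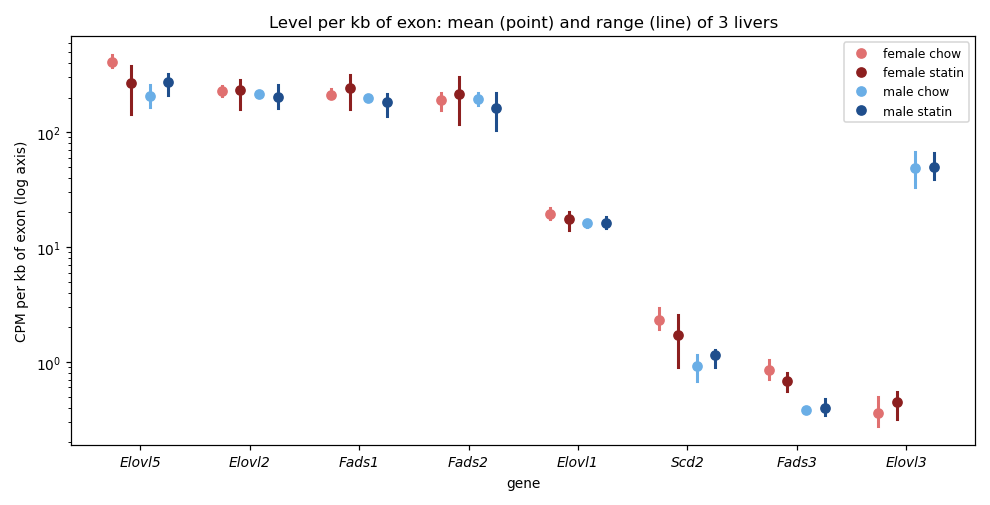
Level of each gene per kb of annotated exon (log axis) in the 4 groups; points are the means of 3 livers and lines run from the lowest to the highest liver. Elovl5, Elovl2, Fads1 and Fads2 lie above 100 CPM per kb in every liver, and Elovl3 is near the bottom in females and at about 50 in males.

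Simvastatin was first compared with chow in females, since the study asked how sex alters the response to statin and followed ω-3 fatty acids. None of the 8 genes passed an adjusted p of 0.05 (edgeR quasi-likelihood test, Benjamini-Hochberg over 11968 genes), against 0.100% of all genes, which is 12 genes. None of the 8 had an unadjusted p under 0.05, against 10.5% of all genes. In each of them the range of the statin livers overlapped that of the chow livers. DESeq2 and limma-trend also called none of the 8. The log2 fold change was below 0 for 4 of the 8, with a median of -0.05, beside a median of 0.01 over all genes, of which 47.2% were below 0.

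Fads1 measured 828, 685 and 680 CPM in the female chow livers and 883, 1089 and 549 CPM in the female statin livers. Fads2 measured 686, 486 and 621 CPM on chow and 716, 947 and 368 CPM on statin. For both desaturases, statin livers lay above and below the whole chow group, and replicate 3 on statin was the lowest female liver. The log2 fold change was 0.20 (SE 0.23, 95% interval -0.30 to 0.70, adjusted p = 0.894, edgeR) for Fads1. It was 0.18 (SE 0.32, interval -0.52 to 0.88, adjusted p = 0.955, edgeR) for Fads2. These values rested on single livers. Without female statin replicate 3 they were 0.45 and 0.49, and without female statin replicate 2 they were -0.03 and -0.14.

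Elovl5, which elongates the products of Fads2, had the lowest fold change of the 8 genes in females. It measured 1309, 1034 and 1025 CPM on chow and 1039.5, 783 and 397 CPM on statin. The highest statin liver lay just above the lower chow livers, so the groups overlapped. The log2 fold change was -0.60 (SE 0.30, interval -1.26 to 0.05), with an adjusted p = 0.535 (edgeR). Leaving out 1 liver at a time gave -0.92 to -0.29, the latter without female statin replicate 3. Elovl2, the elongase of the longer chains, measured 1007.5, 890.2 and 810 CPM on chow and 1013, 1133 and 628 CPM on statin. Its groups overlapped fully, with a log2 fold change of 0.04 (SE 0.22, interval -0.45 to 0.52, adjusted p = 0.993, edgeR), and the sign changed in 3 of the fits that left out a liver.

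Of the remaining members, Scd2 measured 15.99, 10.6 and 11.6 CPM on chow and 9.33, 13.9 and 4.89 CPM on statin in females. Fads3 measured 3.82, 2.94 and 2.62 CPM on chow and 2.57, 2.96 and 2.05 CPM on statin. In both genes the middle of the statin livers was below the chow group, but 1 statin liver was not. The log2 fold changes were -0.44 (SE 0.32, adjusted p = 0.748, edgeR) for Scd2 and -0.31 (SE 0.21, adjusted p = 0.723, edgeR) for Fads3. Without female statin replicate 3, the value for Scd2 was -0.12. Elovl1 lay between 34.2 and 42.6 CPM on chow and 27.1 and 39.5 CPM on statin, with a log2 fold change of -0.14 (SE 0.15, adjusted p = 0.879, edgeR) that became 0.02 without female statin replicate 3. Elovl3 was near 1 CPM in every female liver, with 28 to 55 counts, and its log2 fold change was 0.30 (SE 0.37, adjusted p = 0.907, edgeR).

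For comparison, Scd1 had 53396, 43552 and 36844 CPM in female chow livers and 19551, 25761 and 2810 CPM in female statin livers. Elovl6 had 1442, 1403 and 1091 CPM on chow and 879, 368 and 99.6 CPM on statin. The groups of both separated, with log2 fold changes of -1.48 (adjusted p = 0.420, edgeR) and -1.55 (adjusted p = 0.333, edgeR), neither of which passed the adjusted threshold. With all livers, none of the 8 members had an estimate of that size, and their intervals in females reached down to -1.26 at most, in Elovl5. Female statin replicate 3 was the lowest female liver for Scd1 and Elovl6 too, and values of these 2 genes without a liver are not given here.

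**Figure D2:**
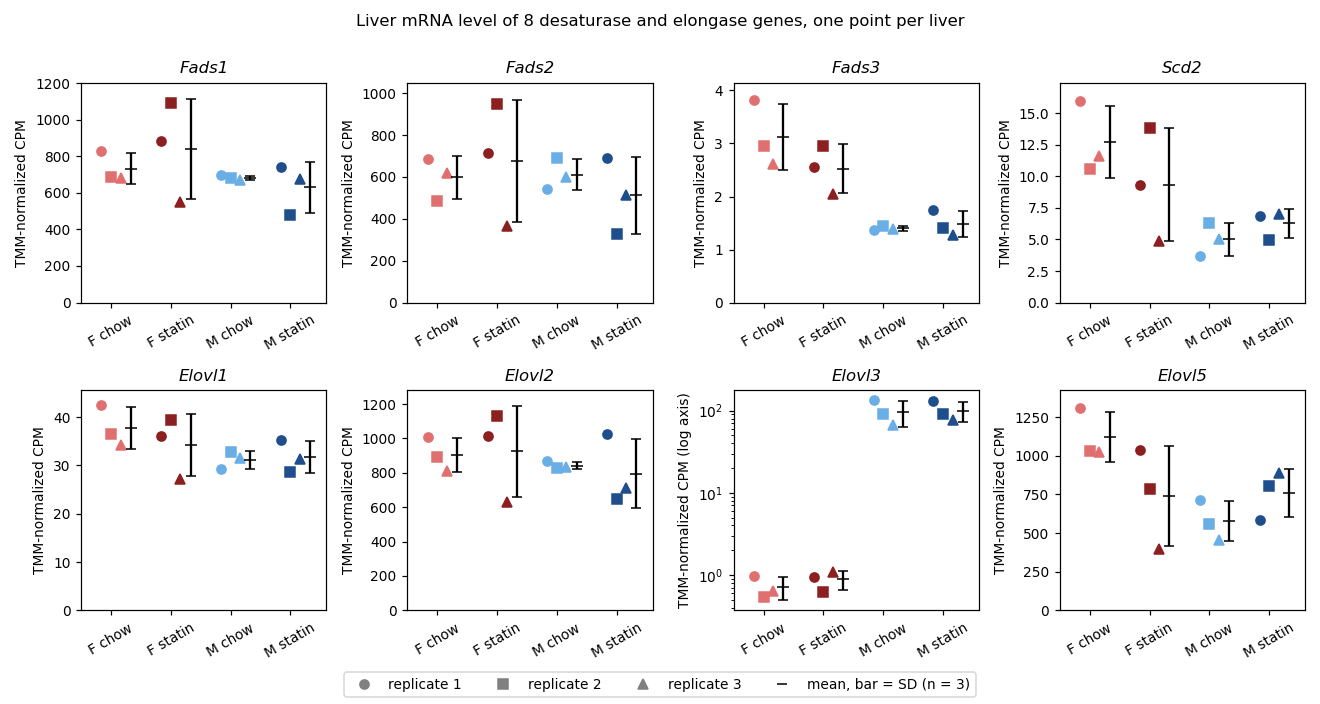
TMM-normalized CPM of the 8 genes in every liver, by group (F, female; M, male), with the mean and SD of 3 livers in black; Elovl3 has a log axis. Chow and statin livers overlap in both sexes for all 8 genes, and female statin replicate 3 is the lowest female liver in 7 of them.

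In males, none of the 8 genes passed the adjusted threshold and none had an unadjusted p under 0.05 (edgeR), against 0% and 1.96% of all genes. No gene at all was called in males by edgeR, where 234 had an unadjusted p under 0.05. DESeq2 called 4 genes and limma-trend 0, and neither called a member. Fads1 measured 695, 679 and 669 CPM on chow and 743, 476 and 673 CPM on statin. Fads2 measured 543, 692 and 598 CPM on chow and 692, 328 and 515 CPM on statin. Male chow livers lay close together for Fads1, and male statin replicate 2 was the lowest male liver for both genes. The log2 fold changes were -0.11 (SE 0.23) and -0.26 (SE 0.32).

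Elovl5 in males measured 717, 557 and 457 CPM on chow and 584, 804 and 888 CPM on statin. The groups overlapped, since 1 statin liver lay below the highest chow liver. The log2 fold change was 0.40 (SE 0.30, interval -0.26 to 1.05). Elovl2 measured 867, 828 and 832 CPM on chow and 1024.5, 648 and 713 CPM on statin, with a log2 fold change of -0.08 (SE 0.22). Scd2 measured 3.72, 6.33 and 5.01 CPM on chow and 6.89, 4.95 and 6.99 CPM on statin, and Elovl1 lay between 29.2 and 32.8 CPM on chow and between 28.6 and 35.3 CPM on statin. Both overlapped between the diets. Scd2 gave 0.32 (SE 0.33), Fads3 0.07 (SE 0.22), Elovl3 0.03 (SE 0.27) and Elovl1 0.02 (SE 0.15) on the log2 scale. The adjusted p was 1.00 (edgeR) for each of the 8 genes in males.

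Whether the response differed between the sexes was asked with the interaction term, female minus male. No member and no gene passed the adjusted threshold by edgeR (0% of all genes, 959 with an unadjusted p under 0.05), by limma-trend 0 genes passed and by DESeq2 130, none of them a member. Elovl5 was the 1 member with an unadjusted p under 0.05, against 8.01% of all genes. Its difference between the responses was -0.997 on the log2 scale (SE 0.42, interval -1.92 to -0.07, adjusted p = 0.574, edgeR), from -0.60 in females and 0.40 in males. Leaving out 1 liver at a time gave -1.32 to -0.69. Scd2 had -0.76 (SE 0.46, adjusted p = 0.793, edgeR), and the other members lay between -0.38 and 0.44. For Scd1 and Elovl6 the same term was -2.44 (adjusted p = 0.472, edgeR) and -2.52 (adjusted p = 0.377, edgeR).

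**Figure D3:**
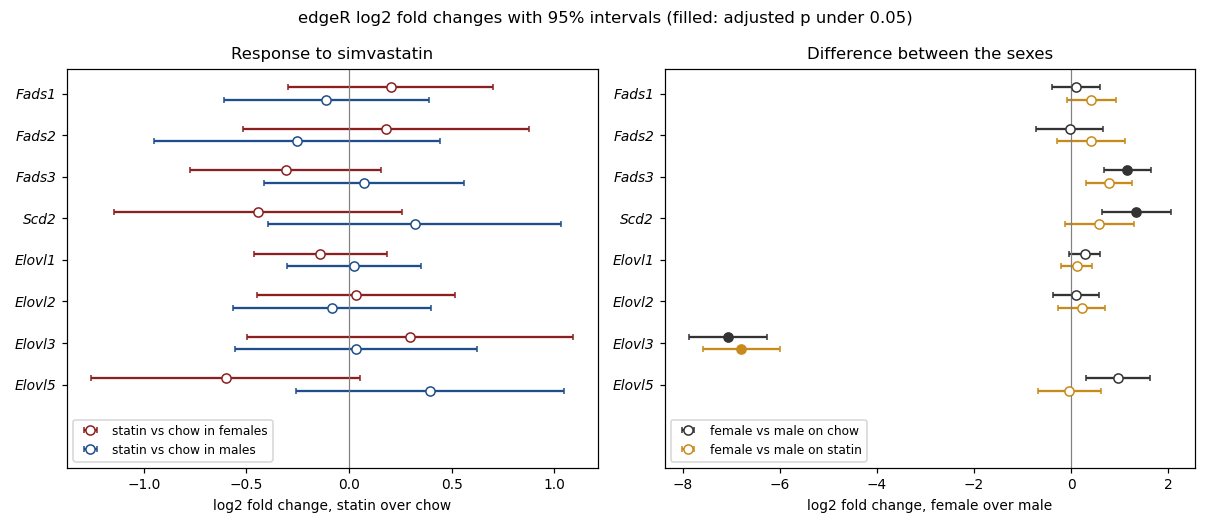
Log2 fold changes with 95% intervals (edgeR) for statin over chow in each sex (left) and for females over males on each diet (right); filled points passed an adjusted p of 0.05. All 16 statin intervals cross 0, and the filled points are Elovl3 on both diets and Fads3 and Scd2 on chow.

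Elovl3 was higher in males, and Fads3 and Scd2 were higher in females, on chow. These 3 of the 8 genes passed the adjusted threshold between the sexes (edgeR), against 10.4% of all genes. An unadjusted p under 0.05 was found for 4, against 24.9%, and 5 separated without overlap, against 37.7%. Elovl3 passed the filter on low counts through the 6 male livers and 1 female liver. Of the other 7 genes 2 passed the adjusted threshold.

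Elovl3 was the member with the largest difference. It measured 0.974, 0.546 and 0.632 CPM in female chow livers and 133, 91.2 and 66.1 CPM in male chow livers. The lowest male liver was far above the highest female liver, and the level in males was 133.9-fold higher (log2 fold change of females over males -7.07, SE 0.37, adjusted p = 1.27e-07, edgeR). On statin, Elovl3 measured 0.951, 0.627 and 1.09 CPM in females and 130, 90.1 and 77.3 CPM in males. The groups again lay far apart, at 111.4-fold higher in males (log2 fold change -6.80, SE 0.36, adjusted p = 1.41e-07, edgeR). The response to statin did not differ detectably between the sexes in Elovl3, with an interaction of 0.27 (interval -0.72 to 1.25).

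Fads3 and Scd2 were higher in females on chow. Fads3 measured 3.82, 2.94 and 2.62 CPM in females and 1.36, 1.45 and 1.39 CPM in males, which is 73 to 200 counts per liver. Every female liver exceeded every male liver, by 2.23-fold on average (log2 fold change 1.16, SE 0.22, adjusted p = 0.00567, edgeR). Scd2 measured 15.99, 10.6 and 11.6 CPM in females and 3.72, 6.33 and 5.01 CPM in males. Its groups did not overlap either, at 2.53-fold (log2 fold change 1.34, SE 0.33, adjusted p = 0.0230, edgeR). The call for Fads3 held in each fit that left out a liver, whereas that for Scd2 was lost without female chow replicate 1 (adjusted p = 0.0899, edgeR), male chow replicate 1 (0.0978) or male chow replicate 3 (0.0746). Scd1, which shares stretches with Scd2, was 6.75-fold higher in females on chow (adjusted p = 0.0186, edgeR), at 36844 to 53396 CPM in the female chow livers; the part of shared reads in the Scd2 values was not tested.

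Markers of other liver cells also differed between the sexes. On chow, the 4 Kupffer cell markers summed to 391 to 504 CPM in females and 214 to 342 in males, with 2 of 4 called higher. The 4 endothelial markers summed to 174 to 190 CPM in females and 114 to 144 in males, with 1 of 4 called higher. The 5 stellate cell markers summed to 299 to 358 CPM in females and 186 to 213 in males, with 2 of 5 called higher (edgeR). Of all genes, 10.4% were called between the sexes on chow, in either direction. None of these markers was at 0 in every liver of a group. Their part in the differences of Fads3 and Scd2 was not tested.

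Elovl5 was at 1309, 1034 and 1025 CPM in female chow livers and 717, 557 and 457 CPM in male chow livers. The groups did not overlap, but the difference did not pass the adjusted threshold (log2 fold change 0.96, SE 0.30, adjusted p = 0.0642, edgeR). It did so with DESeq2 (adjusted p = 0.0141) and with edgeR on all genes without the filter (adjusted p = 0.0122), and over all alternatives other than leaving out a liver the adjusted p ranged from 0.0122 to 0.0941. It also passed without female statin replicate 1 (adjusted p = 0.0425, edgeR) or female statin replicate 3 (adjusted p = 0.0178, edgeR). Elovl1 was at 42.6, 36.5 and 34.2 CPM in females and 29.2, 32.8 and 31.6 CPM in males. Here too every female liver was above every male liver, with a log2 fold change of 0.28 (SE 0.15, adjusted p = 0.284, edgeR). Fads1, Fads2 and Elovl2 had log2 fold changes of 0.10, -0.03 and 0.10 between the sexes on chow, with intervals within -0.73 to 0.66.

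On statin, 1 of the 8 genes, Elovl3, passed the adjusted threshold between females and males (edgeR), against 6.28% of all genes. Elovl3 had passed the filter on low counts through the male livers, and of the other 7 genes 0 passed the adjusted threshold. Elovl3 and Fads3 had an unadjusted p under 0.05, against 19.4%, and the same 2 genes separated, against 19.6%. Fads3 measured 2.57, 2.96 and 2.05 CPM in females and 1.74, 1.41 and 1.27 CPM in males. All female livers were above all male livers, by 1.71-fold (log2 fold change 0.78, SE 0.22, adjusted p = 0.0574, edgeR); DESeq2 called it (adjusted p = 0.0178), as did edgeR without female statin replicate 3 (adjusted p = 0.0371). Scd2 gave 0.58 (SE 0.33, adjusted p = 0.380, edgeR), with female statin replicate 3 below the lowest male liver. Elovl5 gave -0.04 (SE 0.30, interval -0.69 to 0.62, adjusted p = 0.974, edgeR), and its female livers lay on both sides of the male range. Fads1, Fads2, Elovl2 and Elovl1 lay between 0.11 and 0.41 on the log2 scale, with adjusted p-values of 0.370 or more (edgeR).

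Many of the genes varied together from liver to liver within a group. The deviation of log2(CPM + 1) from the group mean was compared for all 28 pairs over 12 livers, with an exact test over the 1296 ways of shuffling livers within groups. Fads1 and Fads2 had the highest Pearson correlation (r = 0.948, permutation p = 0.00772, adjusted p = 0.0270). Their Spearman rho was 0.895 (permutation p = 0.00694, adjusted p = 0.0278), below that of other pairs, with Fads2 and Elovl1 highest at 0.923. Without the 2 livers farthest from the median of Fads1, r of Fads1 with Fads2 was 0.884. None of 7635 other genes with a mean TMM-scaled CPM of 10 or more had a higher r to Fads1 over all 12 livers than Fads2, the highest being 0.936. In all, 26 of 28 pairs had an r above 0, with a median of 0.712, and 11 pairs passed an adjusted p of 0.05 by Pearson's r and 7 of these by Spearman's rho. The 4 that passed by r alone were Fads1 with Scd2 (adjusted p of rho = 0.0519, exact permutation test), Elovl2 with Elovl1 (0.0513), Elovl2 with Fads3 (0.0550) and Elovl2 with Fads2 (0.130). The median r of each member with the 7635 other genes lay between -0.12 and 0.09. Positive and negative r cancel in such a median, so it cannot show how often other genes reach a high r. Pairs of other genes that pass were not counted, so whether this shared variation is particular to the members was not tested. The 11 pairs joined Fads1, Fads2, Fads3, Scd2, Elovl1 and Elovl2, and Elovl3 and Elovl5 were in none of them. Of the 15 pairs among these 6 genes, 4 did not pass by r, namely Fads3 with Fads1 (adjusted p = 0.0910), Fads2 (0.0994) and Scd2 (0.0864), and Scd2 with Elovl2 (0.0881, same exact test). Each of the 11 pairs was also read without the 2 livers farthest from the median of its first gene. The r then ran from 0.645 (Fads1 with Scd2, 0.87 with all livers) to 0.884 (Fads1 with Fads2). Elovl5 had an r of 0.528 with Fads1, which was 0.0973 without the farthest 2 livers.

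Female statin replicate 3 was the lowest of the 6 female livers for 7 of the 8 genes, and it deviated from its group mean by -0.77 for Fads2, -0.56 for Fads1 and -0.79 for Elovl5 on the log2 scale. Male statin replicate 2 was the lowest of the 6 male livers for Fads1, Fads2, Elovl1 and Elovl2, with -0.58 for Fads2, while Elovl5 deviated by 0.11 in that liver. The highest livers of the same groups for Fads2 were female statin replicate 2 (0.59) and male statin replicate 1 (0.50). Fads2 had a coefficient of variation of 43.1% in female statin and 35.6% in male statin livers, against 17.1% and 12.4% on chow. The broadest axis of variation within groups over the other genes took 57.9% of the variance and correlated with the 6 genes at r of 0.395 to 0.603, with Elovl3 at 0.0767 and with Elovl5 at -0.407, given as a description. The labels give no batch or collection time, so the part of either in this spread was not tested.

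**Figure D4:**
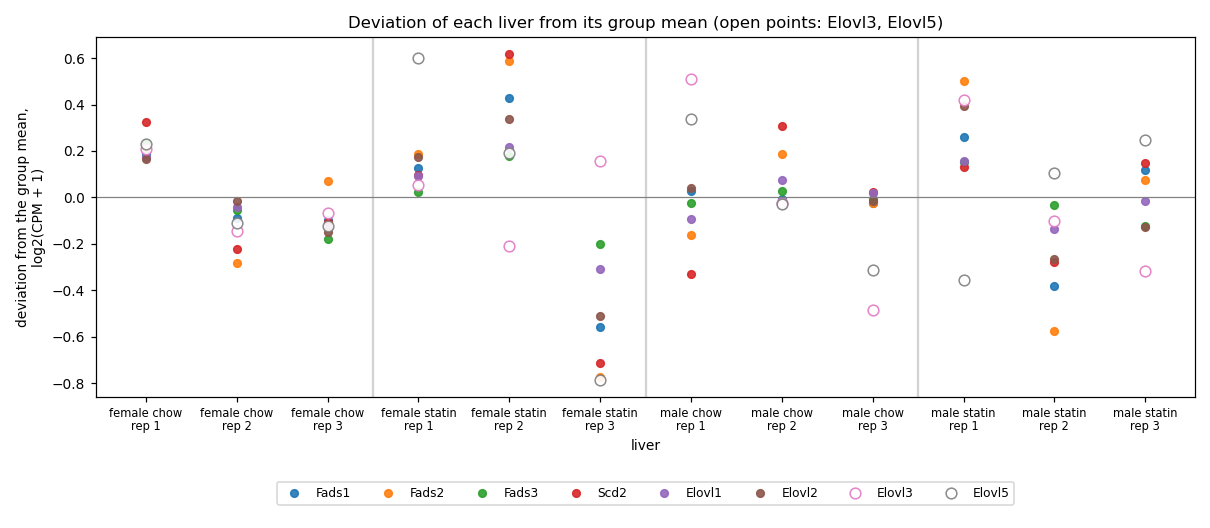
Deviation of each liver from its group mean in log2(CPM + 1), one point per gene, with Elovl3 and Elovl5 as open points. The points of Fads1, Fads2, Scd2, Elovl1 and Elovl2 are below 0 in female statin replicate 3 and male statin replicate 2, Fads3 is below 0 in the former and near 0 in the latter (-0.03), and Elovl5 is low in the former but not in the latter.

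The genes most like each member were ranked by Pearson r of log2(CPM + 1) over the 12 livers, among 11941 genes with the 8 members left out, with no test. Those nearest to Elovl3 were Hsd3b5, a steroid dehydrogenase of male liver (r = 0.997), and the Y-linked Kdm5d (r = 0.996). Hsd3b5 was at 1.08 ± 0.18 CPM (SD, n = 3) in female chow and 155 ± 27.3 CPM in male chow livers. Elovl5 was most like Echdc1 (r = 0.979), which proofreads side products of fatty acid synthesis, and Gstm7 (r = 0.975), a glutathione transferase. The nearest of these genes to Fads2 was Lpcat3 (r = 0.855), which places polyunsaturated fatty acids into phospholipids. Fads1 was nearest to Pld2 (r = 0.903) and Vegfb (r = 0.860), and the second gene for Fads2 was Ctu1 (r = 0.850). Elovl1 was nearest to Scap (r = 0.955), the escort protein of SREBP, and Cadm3 (r = 0.937), and Elovl2 to Man2a2 (r = 0.917) and Pik3ap1 (r = 0.911). Scd2 was nearest to Gabbr2 (r = 0.969) and Cotl1 (r = 0.941), and Fads3 to Espn (r = 0.966) and Rnf144a (r = 0.964). The likeness of Elovl3, Scd2, Fads3 and Elovl5 to their genes includes the difference between the sexes.

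The proteins that work with the members in the same steps were read from the same fit. Of the 5 partners of the elongation cycle, none passed the adjusted threshold in females on statin (edgeR); Hacd3, a dehydratase of the cycle, had 0.74 (adjusted p = 0.174, edgeR) and Tecr, the final reductase, -0.39 (adjusted p = 0.450, edgeR). Tecr was higher in females on chow (log2 fold change 0.65, adjusted p = 0.0320, edgeR), the 1 of 5 partners that passed, against 10.4% of all genes. Of the 3 electron carriers of the desaturases, none passed in any comparison, with Cyb5a at 0.49 in females on statin (adjusted p = 0.456, edgeR) and -0.66 between the sexes on chow (adjusted p = 0.0751, edgeR). In the 8 genes of acyl-CoA activation and incorporation, 0 passed in either statin comparison. An unadjusted p under 0.05 was found for 2 in females, Acsl1 (0.61, adjusted p = 0.310, edgeR) and Acsl5 (-0.63, adjusted p = 0.412, edgeR), against 10.5% of all genes, and for 1 in males, Acsl4 (0.43, adjusted p = 1.00, edgeR), against 1.96%. On chow, 4 of the 8 passed (edgeR), against 10.4% of all genes: Acsl5 (1.37), Acsl3 (0.72) and Acsl4 (0.58) were higher and Acsl1 (-0.86) lower in females.

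The last turn of DHA synthesis takes place in peroxisomes. Of its 8 listed genes, none passed the adjusted threshold for statin in either sex (edgeR), but 4 had an unadjusted p under 0.05 in females, all above 0, against 10.5% of all genes, and none in males, against 1.96%. The values were 0.91 for the transporter Abcd2 (adjusted p = 0.0999, edgeR), 1.05 for the thiolase Acaa1b, 0.63 for Acaa1a and 0.54 for Abcd3, and the median of the list was 0.46 in females and -0.22 in males. Acaa1a and Acaa1b are close copies, so reads may be divided between them. Between the sexes on chow, 3 of the 8 passed (edgeR), against 10.4% of all genes. They were Scp2 (-1.25, adjusted p = 0.005448), Acaa1b (-1.45, 0.005995) and Acaa1a (-0.77, 0.02409), all lower in females. On statin 2 of the 8 passed, against 6.28% of all genes, with Abcd2 higher (1.46, adjusted p = 0.0007037, edgeR) and Scp2 lower (-0.88, 0.04514) in females.

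The 6 genes listed under fatty acid synthesis, Acly, Acaca, Acacb, Fasn, Me1 and Thrsp, had log2 fold changes of -2.12 to -1.03 in females on statin, with a median of -1.47. Female statin replicate 3 was the lowest liver of its group for all 6, as in Fasn with 1096, 1763 and 242 CPM. Without it the 6 values were -1.68 to -0.58, with a median of -1.05 and 4 of 6 with an unadjusted p under 0.05, and without female chow replicate 1 the median was -1.24 and the count 3. With all livers, all 6 had an unadjusted p under 0.05, against 10.5% of all genes, but none passed the adjusted threshold (edgeR), and in males they lay between 0.10 and 1.13. In the same female livers the 3 T and B cell markers, all detected, summed to 1.02 to 2 CPM on chow and 3.08 to 4.02 CPM on statin, without overlap. They were below the filter on low counts and were not tested, with as few as 9 counts (Cd3e in female chow replicate 2). The hepatocyte marker Cyp2e1 was at 3036 to 3553 and 4152 to 6625 CPM (adjusted p = 0.211, edgeR), while the sum of the 5 hepatocyte markers overlapped between the diets. So did the sums of the Kupffer cell (391 to 504 and 336 to 641 CPM), endothelial (174 to 190 and 157 to 192 CPM) and stellate cell markers (299 to 358 and 204 to 313 CPM). All 5 stellate cell markers had a log2 fold change below 0. Their part in the values was not tested. On chow, all 6 genes of fatty acid synthesis were called higher in females (edgeR), by a median of 2.69, against 10.4% of all genes called in either direction. The 8 members lay between -0.60 and 0.30 in females on statin. Between the sexes on chow they went both ways, from -7.07 for Elovl3 to 1.34 for Scd2. Of the 10 listed targets of PPARα, Acot1 (2.14, adjusted p = 0.0306, edgeR) and Acot2 (1.66, adjusted p = 0.0306, edgeR), thioesterases that are close copies, rose in females on statin, although no gene was called in females without female chow replicate 2, female statin replicate 3, any 1 of the male chow livers or male statin replicate 2 or 3. The median of the list was 0.91 in females and -0.30 in males. In females compared with males on statin, all 10 had a log2 fold change above 0 and 5 passed the adjusted threshold (edgeR), against 6.28% of all genes.

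Among 10 regulators of the pathway, none passed for statin in either sex (edgeR), with Nr1h2, an LXR, at -0.34 (adjusted p = 0.218) and Mlxipl, the carbohydrate response factor, at -0.59 (adjusted p = 0.261, edgeR) in females. Srebf1, the gene of SREBP1c, was at -0.13 in females on statin. Insig1, which retains SREBP in the endoplasmic reticulum, was higher in females on chow (0.80, adjusted p = 0.0406, edgeR), the 1 of 10 regulators that passed there, against 10.4% of all genes. Of 10 tested clock genes, none passed in any comparison (edgeR), with Ciart at 0.72 in males on statin (adjusted p = 1.00, edgeR).

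**Figure D5:**
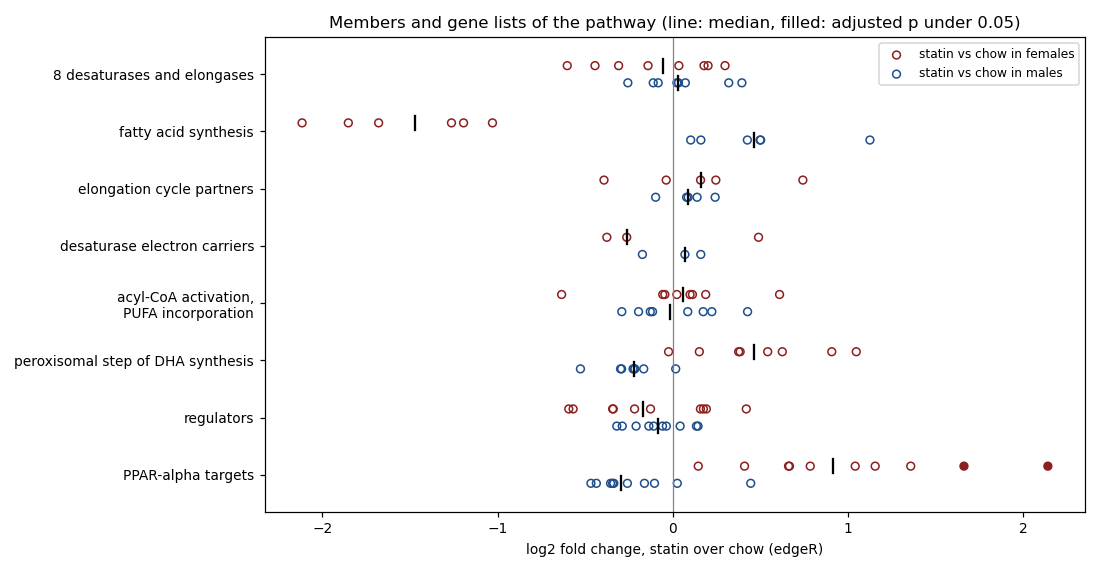
Log2 fold change of statin over chow (edgeR) for the 8 genes and 7 lists of the pathway, one circle per gene, in females (red, above) and males (blue, below); vertical lines are list medians. The 8 genes lie between -0.60 and 0.40, while fatty acid synthesis has a median of -1.47 in females and the 2 filled circles are Acot1 and Acot2.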

How the data were processed

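Liver RNA of 12 mice was sequenced as strand-specific, poly(A)-selected, paired-end libraries. Per the labels, reads were aligned to GRCm38 with STAR 2.4.1a and counted with HTSeq by the authors, whose strand setting and treatment of shared reads are not given in the sources used here. The authors deposited CPM for 48526 genes and counts for 11968 genes. The CPM values were whole reads in 100% of cases (tolerance 0.01 reads) and equalled the deposited counts, so the counts were not normalized, and the count table holds those genes that exceeded 1 CPM in 6 or more livers. Totals exceed the read depth stated in the study's methods, and counting error and depth are read from the files.

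Counts were fitted with edgeR 4.0.16 (TMM, glmQLFit, glmQLFTest, R 4.3.3), 4 groups in one fit, two-sided, with Benjamini-Hochberg adjustment over all 11968 genes and calls at an adjusted p under 0.05. SEs were derived from the F statistic. DESeq2 1.42.0 and limma 3.58.1 on log2(CPM + 1), other scaling, other filters, a replicate block and leaving out each liver were alternatives. Scripts were tested on simulated data. A list of genes of a related pathway is not reported here. Members, gene lists and tests were chosen with earlier results of these data known. The text names all members, up to 3 genes of smallest p per list and comparison, list genes that were called, and the 2 genes most like each member. Positions are from GENCODE vM21; 6 of the 8 members carry a lower identifier version in the files, so the annotation release used in counting may be an earlier one. No 2 livers agreed within sampling noise (lowest chi-square per degree of freedom 44.4). The labels do not say how mice were housed or collected. The edgeR p-values set a difference between groups against the spread of livers within groups, estimated over all 4 groups together.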

Additional observations from a re-analysis of the deposited data

How the results depend on the processing

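No member was called for statin in either sex, or for the interaction, under any alternative run. Leaving out 1 liver at a time changed counts as follows: 0 to 75 genes called in females (0 without female chow replicate 2, female statin replicate 3, any 1 of the male chow livers or male statin replicate 2 or 3, highest without female statin replicate 2), 0 to 14 for the interaction (highest without female statin replicate 2), 635 to 1586 between the sexes on chow (lowest without male chow replicate 1) and 378 to 743 on statin (lowest without male statin replicate 2), and 1 to 2 members between the sexes on statin (2 without female statin replicate 3). DESeq2 called 270 genes in females, 4 in males, 130 for the interaction, 1946 between the sexes on chow and 1284 on statin, and 2 members on statin. Without the filter on low counts, 148 genes were called in females and 103 for the interaction. A stricter filter required a mean of at least 10 CPM before TMM scaling, which kept 7638 genes and left out Fads3 and Scd2. With it, 5 genes were called in females, 771 between the sexes on chow and 357 on statin. On chow 1 member was called, and Fads3 and Scd2, called with the main filter, were not tested. Fads2 on chow turned to 0.014 and Elovl5 on statin to 0.0054. In females alone, 0 genes were called. limma-trend turned Elovl2 in females to -0.0034 with a pseudocount of 1 and -0.0035 with 0.1.

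Values near 0 changed sign when a liver was left out. Ranges on the log2 scale were, for statin in females, -0.029 to 0.45 (Fads1), -0.14 to 0.49 (Fads2), -0.26 to 0.018 (Elovl1) and -0.14 to 0.27 (Elovl2). In males they were -0.25 to 0.056 (Fads1), -0.065 to 0.17 (Fads3), -0.060 to 0.093 (Elovl1), -0.31 to 0.045 (Elovl2) and -0.21 to 0.33 (Elovl3). For the interaction they were -0.058 to 0.34 (Elovl2) and -0.032 to 0.56 (Elovl3). Between the sexes they were -0.0059 to 0.15 (Fads1) and -0.15 to 0.094 (Fads2) on chow and -0.017 to 0.26 (Elovl1) and -0.37 to 0.26 (Elovl5) on statin.

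Livers of different groups share only a replicate number. Deviations of same-numbered livers correlated at a mean r of -0.109 (18 pairs), against 0.0578 for different numbers (36 pairs), so the numbers were not taken as pairs; with the replicate block 5 genes were called in females, and no call of a member changed. The cause of these shifts was not tested.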

Other observations

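Of the other desaturase and elongase genes, 5 were below the filter on low counts and were not tested. Scd3, a stearoyl-CoA desaturase of skin glands, had 35 to 70 counts in female chow livers, 2 to 27 in female statin livers, 7 to 13 in male chow livers and 9 to 15 in male statin livers. The female chow range lay above every other liver, with 2 counts in female statin replicate 3, the liver that was also lowest for 7 of the 8 members. Scd3 shares some 50-base stretches with Scd1, which stood at 36844 to 53396 CPM in female chow livers and at 2810 CPM in that liver, and the part of shared reads in the Scd3 counts was not tested. Elovl7 had 24 to 34 counts in the 6 female livers and 8 to 25 in the 6 male livers. Scd4 and Elovl4 had at most 7 and 3 counts in any liver, and Degs2 at most 10.

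Fads6, a family gene of unknown substrate, was tested and had log2 fold changes of 0.24 in females on statin (adjusted p = 0.679, edgeR) and -0.44 between the sexes on chow (adjusted p = 0.0866, edgeR). Degs1, the ceramide desaturase, had -0.12 and 0.10 in the same comparisons (adjusted p = 0.844 and 0.639, edgeR).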
